A study of Mus musculus with 68 samples.

Results

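The secreted and membrane-bound matrix metalloproteinases, the ADAMTS proteases with their ADAMTS-like relatives, and the tissue inhibitors of metalloproteinases were followed through the pharyngeal arches of the mouse embryo. Members were the rows of the deposited expression table whose mouse symbol, looked up by Ensembl identifier, was an Adamts or Mmp number, an Adamtsl number, or Timp1 to Timp4. This gave 38 of the 21948 genes: 19 ADAMTS proteases, 5 ADAMTS-like proteins, 11 MMPs and 3 TIMPs. Of these, 35 reached at least 1 CPM, the table's depth-scaled read count, in 3 or more libraries and entered the tests, beside 18428 genes in all. Mmp12, Mmp25 and Mmp28 did not reach that level. Another 13 annotated symbols, among them the collagenases Mmp8 and Mmp13 and the inhibitor Timp4, are not analysed here.

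Pharyngeal arches 1 and 2 (PA1 and PA2) were dissected from single mouse embryos of the cross CBA/Ca/J x C57BL/10 at 4 embryonic stages (E9.0, E9.5, E10.0, E10.5), and their polyadenylated RNA was sequenced. Embryos were wildtype or labelled Hoxa2-/-, and no other allele or treatment is named. The 68 libraries formed 16 groups of 3 to 5 by arch, label and stage, from 35 embryos, and 33 embryos are represented by a PA1 and a PA2 library. Recovered read totals ran from 8912251 to 20619153 per library, so that 3 reads, the lower limit used here for detection, were worth 0.140 to 0.328 CPM.

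ADAMTS proteases and MMPs are zinc-dependent enzymes that cut proteoglycans, collagens, fibronectin and other matrix proteins, and they release growth factors and signalling proteins held in the matrix. ADAMTS-like proteins share the non-catalytic modules of the ADAMTS enzymes, lack the protease domain and bind fibrillin microfibrils. TIMPs bind the active site of these enzymes, and TIMP2 also takes part in the activation of pro-MMP2 at the cell surface by MMP14. In the pharyngeal arches, matrix remodelling accompanies the arrival of neural crest cells, and Hoxa2 is the selector gene that gives the second arch its identity.

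Hoxa2 averaged under 1 CPM in every PA1 group, and Pitx1, a PA1 gene, averaged 29.7 to 52.9 CPM in PA1 and 0.623 to 6.18 CPM in PA2, as the arch labels say. Hoxa2 went against the genotype label. In PA2, Hoxa2 averaged 22.3, 40.7, 47.5 and 58.3 CPM in stage order in wildtype libraries and 28.7, 60.7, 97.7 and 132 CPM in libraries labelled Hoxa2-/-. The labels do not say which exons the allele removes, so a count over the whole gene cannot check it. The 24 wildtype libraries of the stages other than E10.0 were also set apart from the other 44 by 17 genes that were higher and 2 that were lower in every one of them. At those 3 stages the genotype label and this division of the libraries cannot be told apart. None of the members was among the 19 genes. The libraries of E10.0 lie on the same side of the division under both labels.

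Markers of other tissues moved with some groups. Summed heart muscle markers (Myh6, Myh7, Tnnt2 and Myl7) passed 100 CPM in 11 libraries, all from PA2 at E9.0 or E9.5, with a maximum of 699 CPM. They stayed at or under 99.3 CPM in every PA1 library. Summed mesenchyme markers (Prrx1, Twist1 and Pdgfra) ran from 105.2 to 190.1 CPM in PA2 at E9.0, from 243 to 317 CPM in PA1 at E9.0, and from 372 to 540.3 CPM in both arches at E10.5. Summed epithelial markers ran the other way, with 551 to 1171 CPM at E9.0 and 252 to 379 CPM at E10.5. Summed neuron markers (Tubb3, Neurod1 and Isl1) were higher in PA2 than in PA1 at every stage of both labels without overlap. In wildtype they ran from 28.0 to 46.5 CPM in PA1 and 94.1 to 177 CPM in PA2 at E9.0, and from 28.3 to 36.6 CPM and 58.0 to 83.6 CPM at E10.0. Under the label they ran from 24.0 to 43.5 CPM in PA1 and from 55.7 to 185 CPM in PA2 over the 4 stages. Most of this sum was Isl1, which is also a gene of the arch mesoderm, with 23.0 to 41.4 CPM in PA1 and 52.3 to 180.5 CPM in PA2. Over all stages the arches overlapped for Tubb3 (0.530 to 10.4 CPM in PA1 and 1.64 to 15.8 CPM in PA2) and for Neurod1, which was at 0 in 7 PA1 and 11 PA2 libraries. Macrophage markers summed to 0 to 14.5 CPM, with each of the 4 at 0 in some library. Wildtype PA2 E9.0 replicate 2 had summed red cell globin and related markers of 53786 CPM, and Hoxa2-/- PA2 E9.0 replicate 3 had summed yolk sac markers of 217 CPM. The library of Hoxa2-/- PA1 E9.5 replicate 3 stood apart in several members (Adamts17 at 50.1 CPM, Adamts1 at 170.0 CPM and Timp3 at 78.0 CPM). The part of these sources in the results below was not tested, beyond the values given without the libraries concerned. In bulk samples fewer cells of a type and less RNA per cell cannot be told apart.

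Per kilobase of exon, Mmp2, Timp2 and Mmp14 had the highest levels of the members. Mmp2, a secreted gelatinase, had a median of 50.5 CPM per kb over the 68 libraries and took a median of 36.3% of the members' summed level. Timp2, which inhibits MMP2 and also helps to activate it, followed with 21.2 CPM per kb (14.5%), and Mmp14, the membrane-type protease that activates pro-MMP2, with 14.3 CPM per kb (10.1%). Together Mmp2, Timp2 and Mmp14 held 46.1% to 65.0% of the sum in a library. Next came Mmp11 (stromelysin 3) at 10.8, Adamts1 at 10.6, Timp1 at 5.21, Mmp15 at 3.83 and Timp3 at 3.37 CPM per kb. The remaining members had medians of 2.71 CPM per kb (Adamts10) or less, down to 0.0394 for Mmp25. The ranges of neighbours in this order overlapped, and no test was made between genes.

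**Figure D1:**
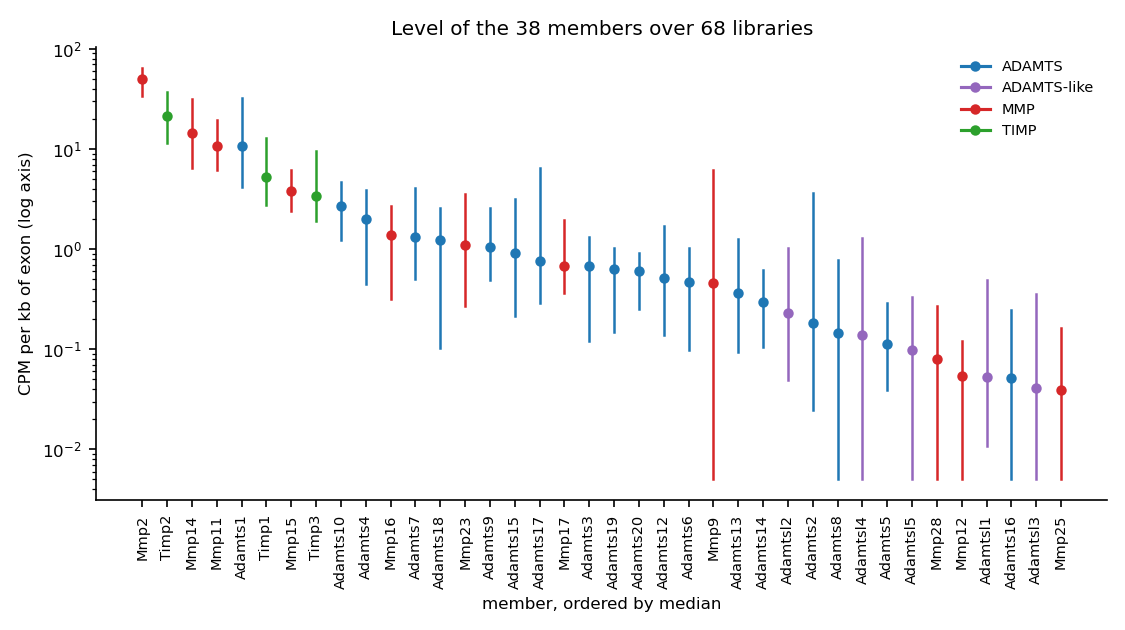
Level of each of the 38 members in CPM per kb of exon (log axis), with the median as a point and the lowest to highest of the 68 libraries as a line; lines that reach 0.005 include a library at 0. Mmp2, Timp2 and Mmp14 lie highest, with medians of 50.5, 21.2 and 14.3 CPM per kb.

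By class, the summed level over all libraries had a median of 83.1 CPM per kb for MMPs, 29.5 for TIMPs, 25.6 for ADAMTS proteases and 0.674 for ADAMTS-like genes. The TIMP sum in wildtype PA1 was 20.4 to 24.5 CPM per kb at E9.0 and 36.3 to 43.3 at E10.5, without overlap. In wildtype PA2 it was 19.9 to 27.9 and then 40.5 to 49.9, also without overlap. The ADAMTS-like sum was 1.40 to 2.01 CPM per kb in wildtype PA2 at E9.0 and 0.323 to 0.732 in wildtype PA1 at that stage.

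The upstream sequences of the 4 members whose arch difference is described most fully are shown because they let a reader compare members that were higher in PA2 (Adamtsl2, Mmp11 and Mmp14) with the member that was lower (Adamts18). Each is the 250 bases before the RefSeq transcription start on the gene's strand, from GRCm38.p6: chr2:27079129-27079378 on the plus strand for Adamtsl2, chr10:75932503-75932752 on the minus strand for Mmp11, chr14:54431348-54431597 on the plus strand for Mmp14 and chr8:113848840-113849089 on the minus strand for Adamts18.
Adamtsl2: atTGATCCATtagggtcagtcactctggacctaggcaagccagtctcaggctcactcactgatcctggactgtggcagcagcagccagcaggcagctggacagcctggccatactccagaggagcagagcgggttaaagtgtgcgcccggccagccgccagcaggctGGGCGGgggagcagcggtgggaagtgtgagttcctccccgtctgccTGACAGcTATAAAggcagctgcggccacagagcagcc
Mmp11: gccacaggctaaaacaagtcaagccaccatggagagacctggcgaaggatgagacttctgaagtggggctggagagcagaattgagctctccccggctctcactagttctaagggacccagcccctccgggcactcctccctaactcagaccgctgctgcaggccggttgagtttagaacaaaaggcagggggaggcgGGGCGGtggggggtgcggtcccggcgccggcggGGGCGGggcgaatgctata
Mmp14: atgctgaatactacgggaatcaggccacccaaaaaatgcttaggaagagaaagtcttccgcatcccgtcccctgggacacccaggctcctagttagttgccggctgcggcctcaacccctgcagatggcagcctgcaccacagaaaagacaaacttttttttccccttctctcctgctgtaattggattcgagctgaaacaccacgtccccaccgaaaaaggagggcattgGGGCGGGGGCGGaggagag
Adamts18: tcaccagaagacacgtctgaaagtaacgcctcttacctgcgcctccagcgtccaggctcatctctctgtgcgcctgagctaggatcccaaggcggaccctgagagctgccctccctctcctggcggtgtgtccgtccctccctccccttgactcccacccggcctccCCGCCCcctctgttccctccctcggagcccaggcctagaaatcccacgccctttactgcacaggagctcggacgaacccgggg
Capitals mark matches, on either strand, to 5 motifs. The motif of a Hox and Pbx pair was read as TGATNNAT and that of Meis proteins as TGACAG. For a homeodomain site the core letters TAATTA were searched. The TATA box was searched as TATAAA. For the GC box the letters were GGGCGG. Adamtsl2 held TGATNNAT at bases -248 to -241 from its start, GGGCGG at -83 to -78, TGACAG at -37 to -32 and TATAAA at -30 to -25. Mmp11 held GGGCGG at -52 to -47 and -19 to -14, Mmp14 at -19 to -14 and -13 to -8, and Adamts18 on the opposite strand at -83 to -78. Among all 32851 windows of that length in the table, TGATNNAT occurred in 7.68%, TGACAG in 15.9%, TAATTA in 4.84%, TATAAA in 12.4% and GGGCGG in 32.7%. Windows were available for 24 of the 38 members, of which 1 held TGATNNAT, 5 TGACAG, 0 TAATTA, 2 TATAAA and 19 GGGCGG. Adamts4 and Mmp9 had no window. A match describes letters and is not evidence of a bound site.

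The first comparison asked which members differ between the arches. In wildtype embryos 20 of 35 members passed an adjusted p of 0.05 at 1 or more stages, 14 higher and 6 lower in PA2, beside 18.7% of all genes called higher and 21.5% called lower at 1 or more stages. The largest differences among those higher in PA2 were those of Adamtsl2, Mmp9, Adamtsl4, Adamts7, Mmp11 and Mmp14, and those lower included the proteases Adamts18, Adamts15, Adamts17 and Adamts19 and the membrane-type Mmp16. In embryos labelled Hoxa2-/-, 14 of 35 passed, 9 higher and 5 lower, beside 15% and 15.2% of all genes. Adamtsl3 reached 1 CPM in 10 libraries, all from PA2, and Adamtsl5 in 6, all from PA1, so both were tested only because 1 arch was high, and their arch differences are a description. Without them 13 members were called higher and 5 lower in wildtype, and 8 and 4 under the label. In each of these comparisons the neuron marker sum was higher in PA2, and at wildtype E9.0, E9.5 and E10.0 and at E9.0 under the label the mesenchyme sum was lower in PA2, without overlap. Their part in the members' differences was not tested. All p-values across genes are from limma on log2(CPM + 1), with Benjamini-Hochberg adjustment over the 18428 genes, and each difference is on that scale with its standard error, which understates changes of low genes.

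By stage, the number of members called in wildtype was 11, 15, 7 and 0 in stage order, and the share of all tested genes called was 18.7%, 26.3%, 5.94% and 1.52%. Among embryos labelled Hoxa2-/- the members called were 9, 9, 7 and 0, and the shares of all genes 24.6%, 9.58%, 4.23% and 1.37%. The median log2 difference of the 35 members in wildtype was -0.07, 0.36, 0.21 and 0.06 in that order, beside medians within 0.02 of 0 for all genes. At E10.5, with 3 embryos a group, 0 members passed in limma or in edgeR under either label, and 6 in each label had an unadjusted p under 0.05 in limma. With the embryo as a block, the arches of wildtype E10.5 differed in Adamts18 (-0.93, adjusted p = 0.0234) and in Adamtsl3, and those labelled Hoxa2-/- in Mmp9 (1.29, adjusted p = 0.0176). At the earlier stages the block added, in wildtype, Adamts3 (-0.55), Adamts4 (-0.59), Adamts20 (-0.43) and Adamts7 (0.53) at E9.0, Adamts1 (0.63) and Adamtsl1 (0.74) at E9.5, and Adamts5 (0.55) and Mmp23 (0.52) at E10.0. Under the label it added Adamts15 (-0.62), Adamts20 (-0.40), Mmp16 (-0.47) and Mmp2 (0.26) at E9.0, Mmp2 (0.28) at E9.5 and Adamts1 (0.64) at E10.0.

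**Figure D2:**
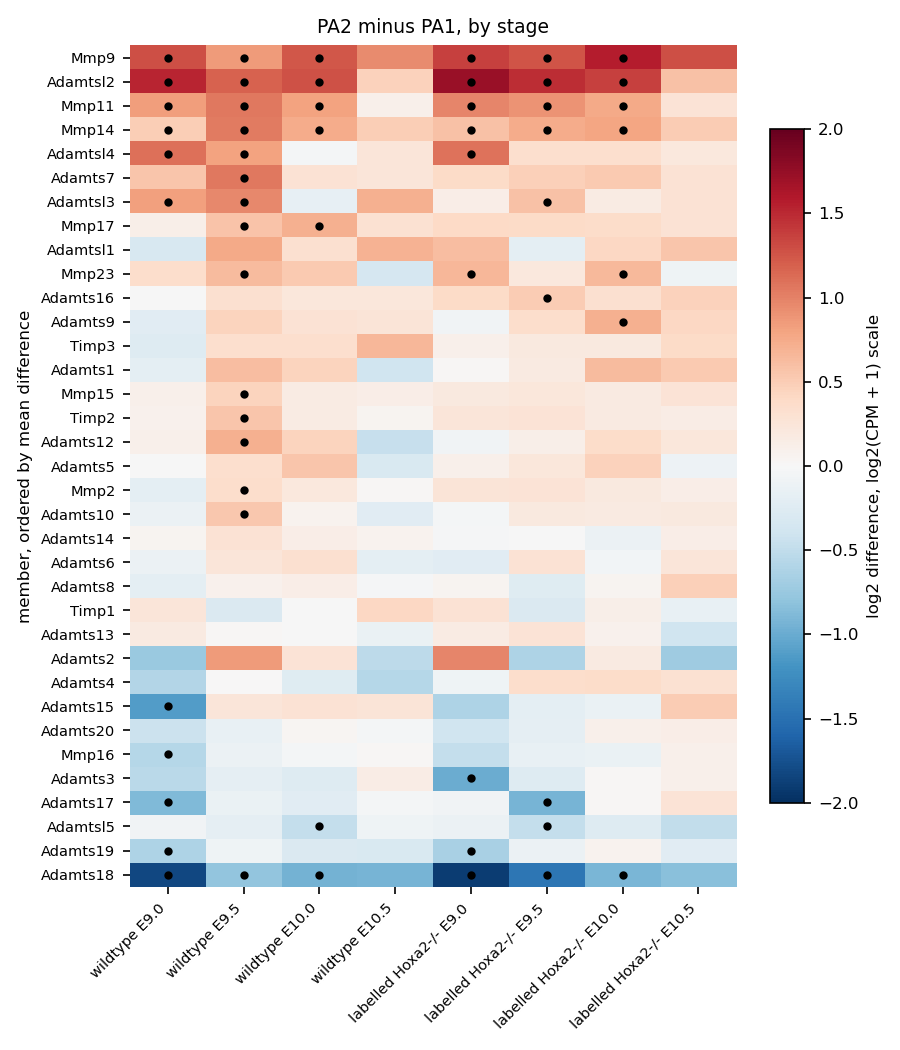
Difference between arches (PA2 minus PA1, log2(CPM + 1) scale) for the 35 tested members, by genotype label and stage; black points mark an adjusted p under 0.05. Mmp9, Adamtsl2, Mmp11 and Mmp14 carry points at E9.0, E9.5 and E10.0 in both labels at the top, Adamts18 does so at the bottom, and neither E10.5 column carries a point.

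Adamtsl2 (chr2:27079379-27108981), which encodes a secreted fibrillin-binding glycoprotein, had the largest difference in favour of PA2 on the log2(CPM + 1) scale among the called members, in both labels. In edgeR the log2 fold change of Mmp9, a low member, was larger, with 2.76 at wildtype E10.0 and 3.58 at E10.0 under the label, against at most 2.46 for Adamtsl2 in either label. At E9.0 the wildtype PA1 libraries held 1.15, 1.41, 1.33, 1.45 and 1.77 CPM and the PA2 libraries 8.24, 4.33, 6.79 and 4.98 CPM. At E9.5 they held 1.20, 1.65, 1.50, 1.68 and 1.06 CPM against 5.46, 3.89, 4.27 and 4.35 CPM. Every PA2 library was above every PA1 library at both stages. At E10.0 the values were 0.818, 0.942, 1.28, 0.729 and 1.14 CPM in PA1 and 2.91, 4.35, 2.51, 4.44 and 5.24 CPM in PA2, again without overlap. At E10.5 they were 0.599, 0.896 and 1.87 CPM against 2.07, 1.58 and 1.83 CPM, and the arches overlapped. The log2 difference was 1.52 ± 0.19 (adjusted p = 2.53e-08), 1.18 ± 0.19 (8.37e-06), 1.28 ± 0.18 (5.64e-07) and 0.45 ± 0.24 (0.742).

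Embryos labelled Hoxa2-/- gave the same order for Adamtsl2. At E9.0 the PA1 libraries held 1.22, 1.66, 0.896 and 0.694 CPM and the PA2 libraries 7.24, 7.47, 3.60 and 6.18 CPM, a log2 difference of 1.73 ± 0.20 (adjusted p = 3.81e-09). At the 3 later stages the difference was 1.47 (adjusted p = 1.61e-08), 1.36 (1.39e-07) and 0.58 (0.33). The arches did not overlap at any of the 4 stages. Over both labels PA2 was above PA1 in 32 of the 33 embryos with both arches. Without the 11 libraries with heart muscle transcripts, the E9.0 difference was 1.14 in both labels (adjusted p = 0.00558 in wildtype and 0.00317 under the label). The PA2 libraries of E9.0 left by this omission were wildtype replicate 2, with the highest red cell marker sum, and Hoxa2-/- replicate 3, with the highest yolk sac marker sum. Without libraries with yolk sac or red cell transcripts, these 2 among them, the E9.0 difference was 1.65 in wildtype and 1.93 under the label.

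Mmp11 (chr10:75923222-75936496), a secreted protease that cuts serpins and collagen VI rather than the major fibrillar collagens, showed the same pattern at a higher level. In wildtype E9.0 the PA1 libraries held 17.4, 19.6, 18.9, 19.3 and 23.9 CPM and the PA2 libraries 42.9, 30.6, 34.0 and 37.2 CPM. At E9.5 they held 19.5, 20.9, 21.4, 21.2 and 18.4 CPM against 39.8, 38.1, 50.7 and 45.2 CPM, and at E10.0 23.8, 20.2, 25.1, 17.3 and 19.6 CPM against 36.5, 32.4, 38.0, 37.5 and 44.1 CPM. The arches did not overlap at these 3 stages in either label. At E10.5 the wildtype values were 36.2, 35.4 and 33.2 CPM in PA1 and 30.8, 42.4 and 39.7 CPM in PA2, which overlapped. The wildtype log2 differences were 0.83 ± 0.14, 1.06 ± 0.14, 0.81 ± 0.13 and 0.10 ± 0.17, with adjusted p of 1.21e-05, 1.18e-07, 1.3e-05 and 1. Under the label Hoxa2-/- they were 0.98, 0.90, 0.75 and 0.27, called at the first 3 stages. PA2 was above PA1 in 31 of 33 embryos. Exons of Mmp11 overlap those of Chchd10 on the opposite strand, and the library kit does not mark strand, so reads of the pair cannot be told apart. Without the libraries with heart muscle transcripts the wildtype E9.0 difference was 0.61 (adjusted p = 0.0538), and without those with yolk sac or red cell transcripts 0.91 (9.18e-06).

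Mmp14 (chr14:54431612-54445364), the membrane protease that activates pro-MMP2, was higher in PA2 than in PA1 in all 33 embryos. In wildtype E9.5 the PA1 libraries held 54.9, 68.2, 64.4, 84.6 and 38.9 CPM and the PA2 libraries 124, 113, 150.1 and 115 CPM, without overlap. At E9.0 they held 84.5, 88.2, 78.7, 69.4 and 93.2 CPM against 152, 110.5, 96.8 and 111 CPM, also without overlap. At E10.0 they held 78.8, 59.4, 57.2, 71.7 and 47.9 CPM against 125, 106, 77.9, 132 and 90.5 CPM, where replicate 3 of PA2 fell within the PA1 range. The log2 difference was, stage by stage, 0.49 ± 0.18 (adjusted p = 0.0473), 1.04 ± 0.18 (2.35e-05), 0.74 ± 0.17 (0.00234) and 0.49 ± 0.22 (0.554). With the Hoxa2-/- label it was 0.59, 0.74, 0.80 and 0.51, called at the first 3 stages, with overlap of the arches at E9.0. Of the E9.0 calls, the wildtype one was lost when any of 7 of its 9 libraries was left out (0.36 to 0.51). That under the label was lost without PA2 replicate 1 (0.41, adjusted p = 0.123), PA1 replicate 3 (0.54, 0.0523) or PA1 replicate 4 (0.51, 0.0684). Without the libraries with heart muscle transcripts it turned to -0.02. The 1 PA2 library then left was replicate 3, which has the yolk sac transcripts, and without the libraries with yolk sac or red cell transcripts the difference was 0.79 (adjusted p = 0.00166). In wildtype the heart muscle omission gave 0.42 (adjusted p = 0.33) at E9.0.

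Mmp9, the other gelatinase, was also higher in PA2 in all 33 embryos. At E9.0 the wildtype PA1 libraries held 1.52, 2.87, 3.02, 1.38 and 3.88 CPM and the PA2 libraries 7.31, 7.48, 7.50 and 6.82 CPM. At E10.0 PA1 held 0.182, 0.314, 0.400, 0.365 and 0.300 CPM, near the value of 3 reads, and PA2 2.98, 2.28, 1.75, 1.87 and 1.72 CPM. The arches overlapped in neither case. The wildtype log2 difference was, stage by stage, 1.28 ± 0.32 (adjusted p = 0.00302), 0.84 ± 0.32 (0.0462), 1.24 ± 0.31 (0.00544) and 0.94 ± 0.39 (0.465). Under the label Hoxa2-/- it was 1.36, 1.25, 1.58 and 1.29, called at the first 3 stages, with overlap of the arches at E9.0. At E9.5 in wildtype the value of PA2 replicate 3, 4.88 CPM, stood far from the other 3 (1.16 to 1.31 CPM), and the difference was 0.49 without it (adjusted p = 0.332). That call was also lost without PA1 replicate 1 (0.72), 2 (0.84) or 5 (0.76). Without the libraries with heart muscle transcripts the wildtype difference was 1.32 (adjusted p = 0.0526) at E9.0 and 0.50 (0.447) at E9.5.

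Adamts18 (chr8:113697126-113848738), a secreted protease of the ADAMTS family, ran against the others. It was lower in PA2 than in PA1 in all 33 embryos. In wildtype E9.0 the PA1 libraries held 14.7, 14.4, 12.3, 17.4 and 17.6 CPM and the PA2 libraries 3.09, 4.12, 3.03 and 4.22 CPM. At E9.5 they held 13.3, 18.1, 12.4, 12.1 and 25.2 CPM against 9.81, 6.12, 7.42 and 12.3 CPM, where the highest PA2 library passed the lowest PA1 library. At E10.0 they held 21.4, 18.5, 25.4, 17.2 and 21.0 CPM against 12.5, 8.38, 6.88, 10.6 and 14.6 CPM, and at E10.5 24.2, 17.8 and 25.5 CPM against 12.7, 11.7 and 9.37 CPM, without overlap. The log2 differences were -1.82 ± 0.23, -0.78 ± 0.23, -0.94 ± 0.22 and -0.93 ± 0.29, with adjusted p of 3.66e-08, 0.0104, 0.00314 and 0.0958. Under the label Hoxa2-/- they were -1.90, -1.44, -0.92 and -0.83, and the arches did not overlap at any stage. Leaving out wildtype PA2 E9.5 replicate 2 gave -0.64 at E9.5 (adjusted p = 0.0515). Without the libraries with heart muscle transcripts the difference at E9.0 under the label was -2.99, again against PA2 replicate 3 alone.

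**Figure D3:**
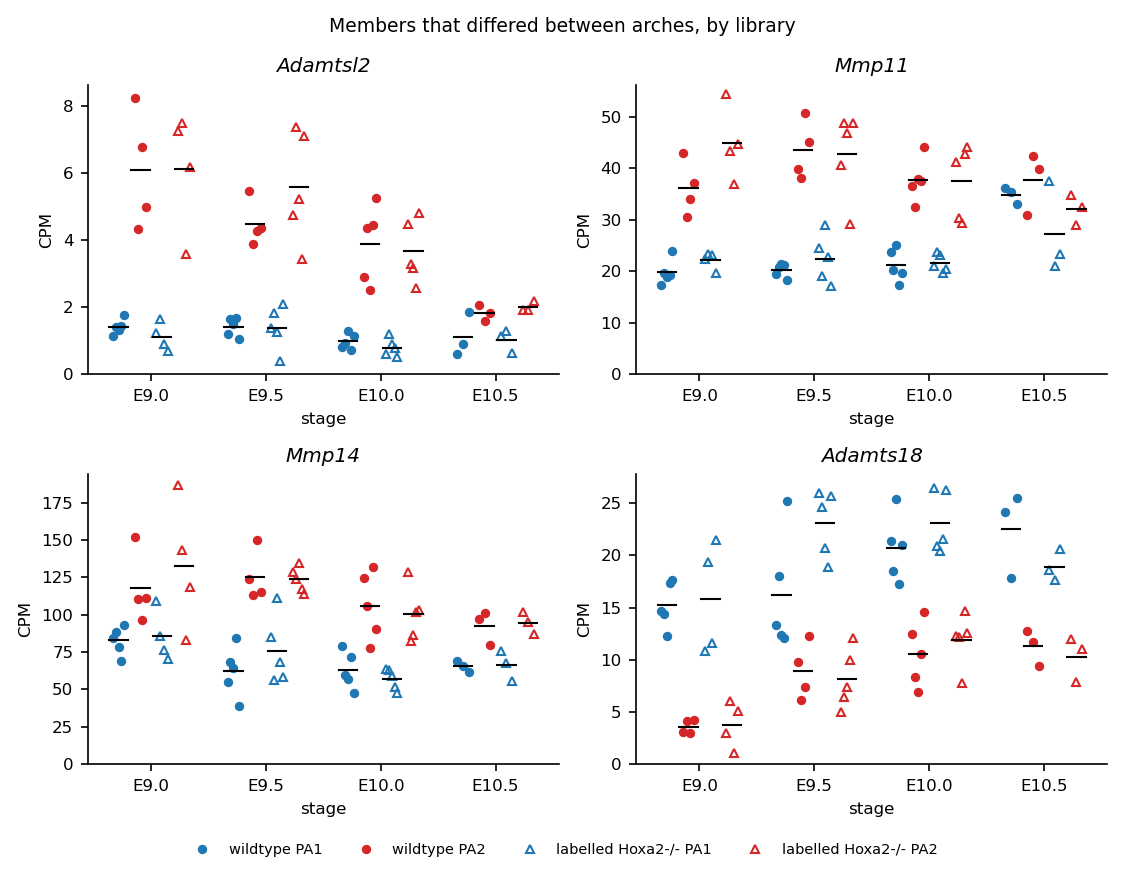
CPM of Adamtsl2, Mmp11, Mmp14 and Adamts18 in each library by stage; circles are wildtype, triangles are labelled Hoxa2-/-, blue is PA1, red is PA2, and short lines are group means. The red group means lie above the blue for Adamtsl2, Mmp11 and Mmp14 and below them for Adamts18, and for Adamtsl2 and Mmp11 the wildtype arches overlap at E10.5.

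Other members higher in PA2 were called mostly at wildtype E9.5. Adamtsl4, another fibrillin-associated protein, held 0.470 to 1.24 CPM in PA1 and 2.73 to 3.97 CPM in PA2 at wildtype E9.0, a log2 difference of 1.10 ± 0.24 (adjusted p = 0.000626). It passed again at wildtype E9.5 (0.80) and at E9.0 under the label Hoxa2-/- (1.09). The E9.5 call was lost without PA2 replicate 3 (0.68, adjusted p = 0.067) and without the libraries with heart muscle transcripts (0.70, 0.125), and the E9.0 call under the label without the latter (0.41, 0.454). Adamtsl3, tested only because PA2 was high, held means of 0.123 CPM in PA1, below the value of 3 reads, and 0.992 CPM in PA2 at wildtype E9.0. Adamts7, which cuts cartilage oligomeric matrix protein, held 3.17, 5.59, 3.49, 7.62 and 4.76 CPM in PA1 and 10.6, 8.60, 12.3 and 12.6 CPM in PA2 at wildtype E9.5, a difference of 1.06 ± 0.22 (adjusted p = 0.000329). Its exons overlap those of Tbc1d2b on the opposite strand.

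At the same wildtype E9.5 comparison Mmp2 (0.36), Mmp15 (0.44), Mmp17 (0.56), Mmp23 (0.63), Adamts10 (0.54), Adamts12 (0.70) and Timp2 (0.55) also passed, so 14 of the 15 called members were higher, beside 12.7% of all genes called higher and 13.7% called lower. Leaving out 1 library ended the call of Mmp2 without PA2 replicate 3 (0.31), of Adamts10 and Timp2 without PA2 replicate 5 (0.43 and 0.44), of Mmp23 without PA2 replicate 3 or PA1 replicate 5 (0.59 and 0.50) and of Mmp17 without PA1 replicate 1, PA2 replicate 3 or PA2 replicate 5 (0.47 to 0.51). For Mmp15 and Adamts12 any of 5 (0.36 to 0.45) and 6 (0.58 to 0.72) of the 9 libraries ended it. Without the libraries with heart muscle transcripts, which left 2 PA2 libraries of E9.5, these 7 members were at 0.27 (Mmp2) to 0.55 (Mmp23) and did not pass. Mmp17, a membrane-type protease anchored by a lipid, passed again at E10.0 (0.71). Under the label Hoxa2-/- at E9.5 none of Mmp2, Mmp15, Mmp17, Mmp23, Adamts7, Adamts10, Adamts12 and Timp2 passed. Whether the arch difference itself differed between labels is given with the genotype comparison.

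Members lower in PA2 were mostly ADAMTS proteases and were called mainly at E9.0. Adamts15, which cuts versican and aggrecan, held 10.7, 11.1, 12.9, 14.1 and 9.47 CPM in PA1 and 2.21, 4.92, 7.01 and 6.28 CPM in PA2 at wildtype E9.0 (-1.12 ± 0.26, adjusted p = 0.00145), without overlap. Adamts19 was lower at E9.0, with differences of -0.62 in wildtype and -0.65 under the label. The wildtype call was lost without PA2 replicate 5 (-0.56, adjusted p = 0.0615), and that under the label without PA2 replicate 3, the library with yolk sac transcripts (-0.37, 0.179), or PA1 replicate 4 (-0.53, 0.0682). At wildtype E9.0 Adamts17 was lower (-0.89, adjusted p = 0.0459) and so was Mmp16, a membrane-type protease (-0.57, 0.029). The Adamts17 call was lost when any of 6 of the 9 libraries was left out (-0.94 to -0.62), and that of Mmp16 with any of 4 (-0.54 to -0.44). Without the libraries with heart muscle transcripts, wildtype Adamts19 was at -0.49, Adamts17 at -0.59 and Mmp16 at -0.94, and Adamts19 under the label at -1.51. These values rest on 1 PA2 library of E9.0 in each label. It was wildtype replicate 2, with the highest red cell marker sum, and Hoxa2-/- replicate 3, with the yolk sac transcripts. Adamts3, a procollagen N-propeptidase that also processes VEGF-C, held 4.05, 6.29, 5.87 and 4.92 CPM in PA1 and 3.66, 2.46, 0.662 and 2.49 CPM in PA2 under the label at E9.0 (-0.999 ± 0.21, adjusted p = 0.00038). Its difference was -1.90 with the heart muscle omission, against PA2 replicate 3 alone (0.662 CPM). Adamts17 also passed under the label at E9.5 (-0.94), where the value without PA1 replicate 3 was -0.35 (adjusted p = 0.363). That call was also lost without PA2 replicate 1 (-0.79), 2 (-0.99) or 3 (-0.89).

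The second comparison followed each arch from E9.0 to E10.5. All 3 TIMPs and the membrane-type Mmp16 rose in wildtype PA2, and most called ADAMTS proteases rose with them, while Adamtsl2, Adamtsl4, Adamts12, Mmp9 and Mmp15 fell. Comparing E10.5 with E9.0, 14 members passed in wildtype PA1 (42.5% of all genes called), 21 in wildtype PA2 (36.9%), 13 in PA1 labelled Hoxa2-/- (31.2%) and 16 in PA2 labelled Hoxa2-/- (30.9%). The median difference of the members was 0.17, 0.41, -0.06 and -0.02 in that order, and that of all genes 0.00, -0.01, -0.02 and 0.01. Split by direction, 21% of all genes were higher and 21.5% lower at E10.5 in wildtype PA1, 17.5% and 19.4% in wildtype PA2, 14.8% and 16.5% in PA1 labelled Hoxa2-/-, and 15.8% and 15.1% in PA2 labelled Hoxa2-/-. Adamts16 reached 1 CPM in 5 libraries, all of E10.5, and was tested only because that stage was high, so its rises in both wildtype arches are a description. The 6 libraries in which Adamtsl5 reached 1 CPM were all of E10.0 or E10.5. Its rises to E10.5 in both wildtype arches and in PA1 labelled Hoxa2-/-, counted above, are therefore a description too. Over this interval the epithelial marker sum fell and the mesenchyme sum rose, as given above.

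The steps were unequal. In wildtype PA1 1 member passed from E9.0 to E9.5 (6.73% of all genes) and 14 from E9.5 to E10.5 (40.9%). In wildtype PA2 the counts were 4 (6.68%) and 20 (34.3%). In PA2 labelled Hoxa2-/- 9 passed from E9.0 to E9.5 (16.9%), 1 from E9.5 to E10.0 (4.57%) and 0 from E10.0 to E10.5 (0.239%). In PA1 labelled Hoxa2-/- the counts were 1 (2.85%), 1 (4.4%) and 0 (0.298%). For the last step, 2 members in PA1 and 3 in PA2 had an unadjusted p under 0.05 in limma, and edgeR called 0 in each.

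Among the inhibitors, Timp1 (chrX:20870166-20874735), which inhibits most secreted MMPs, held 3.04, 4.12, 4.25 and 4.76 CPM in wildtype PA2 at E9.0, 4.62, 3.47, 2.49 and 4.61 CPM at E9.5, 6.78, 3.15, 5.13, 4.17 and 6.42 CPM at E10.0 and 11.4, 8.96 and 9.70 CPM at E10.5. The 3 latest libraries were above all earlier ones. From E9.0 to E10.5 it rose by 0.96 ± 0.18 in wildtype PA1 (adjusted p = 9.65e-06), 1.14 ± 0.18 in wildtype PA2 (1.35e-06) and 0.66 ± 0.18 in PA1 labelled Hoxa2-/- (0.00438). In PA2 labelled Hoxa2-/- its difference was 0.22 (adjusted p = 0.398). Its step from E9.5 to E10.0 there was called higher, at 0.49 to 0.67 on leaving out 1 library, and the call was lost in 5 of 10 such refits.

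Timp2 was the inhibitor that rose in all 4 series: 0.79, 0.76, 0.58 and 0.50 (adjusted p = 0.000232, 0.000783, 0.0117 and 0.0338). In wildtype PA1 its libraries held 71.2, 52.4, 55.8, 66.2 and 53.2 CPM at E9.0 and 92.9, 119 and 99.4 CPM at E10.5, without overlap. The Timp2 call in PA2 labelled Hoxa2-/- was lost without replicate 3 of E9.0 (0.31, adjusted p = 0.225), replicate 1 of E10.5 (0.33, 0.26) or replicate 3 of E10.5 (0.54, 0.0504), and that in PA1 of this label without replicate 4 of E9.0 or replicate 1 of E10.5 (both 0.46). The heart muscle omission, which left replicate 3 as the only PA2 library of E9.0 under the label, gave 1.051 in PA2. Timp3, the matrix-bound inhibitor that also acts on ADAMTS proteases, rose by 1.17 ± 0.26 in wildtype PA2 (adjusted p = 0.000221), from 33.3, 18.0, 23.8 and 18.7 CPM to 49.0, 66.1 and 44.7 CPM. Exons of Timp3 overlap those of Syn3 on the opposite strand. In the other 3 series its differences were 0.25, 0.14 and 0.43 and did not pass.

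Among the MMPs, Mmp16 (chr4:17852893-18119145) rose in all 4 series, by 1.11 ± 0.21, 1.70 ± 0.22, 0.88 ± 0.22 and 1.45 ± 0.22 (adjusted p = 1.6e-05, 6.68e-09, 0.00127 and 4.15e-07). In wildtype PA2 its libraries held 7.21, 3.96, 4.80 and 6.12 CPM at E9.0, 8.82, 6.29, 5.64 and 12.5 CPM at E9.5, 15.0, 12.2, 12.7, 11.4 and 12.3 CPM at E10.0 and 19.8, 23.1 and 16.9 CPM at E10.5. The 3 libraries of E10.5 were above all those of E9.0, E9.5 and E10.0. Under the label in PA2 its difference was 2.28 with the heart muscle omission. That omission left 1 PA2 library of E9.0 in each label, here replicate 3 with the yolk sac transcripts. Mmp9 fell in 3 series, with differences of -1.02 in wildtype PA2, -1.51 in PA1 labelled Hoxa2-/- and -1.59 in PA2 labelled Hoxa2-/- (adjusted p = 0.0246, 0.00112 and 0.00061). The wildtype PA2 call was lost without replicate 1 of E10.5 (-0.72, adjusted p = 0.185), in edgeR (-1.18, 0.0659) and with the heart muscle omission (-1.06, 0.108). Its E9.5 against E9.0 difference there was -1.55 (adjusted p = 0.00343). Mmp15 fell in both wildtype arches (-0.66 and -0.62); in PA2 the value without libraries with heart muscle transcripts was -0.24 (adjusted p = 0.445). Mmp2, the most abundant member, differed by 0.41 in wildtype PA2 (adjusted p = 0.00888; 0.33, 0.0502, without replicate 4 of E9.0) and by 0.18, 0.03 and -0.09 in the other series, where it did not pass.

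Of the 19 ADAMTS proteases, 9 have roles outside versican cleavage and procollagen trimming. Of these, 5, 7, 2 and 5 were higher and 0, 1, 1 and 1 lower at E10.5, Adamts16 being 1 of those higher in both wildtype arches, in wildtype PA1, wildtype PA2, PA1 labelled Hoxa2-/- and PA2 labelled Hoxa2-/-. Adamts7 rose in all 4 (1.53, 1.22, 0.86 and 0.76), and Adamts10, which processes and binds fibrillin-1, did so too (0.79, 0.68, 0.61 and 0.86). In wildtype PA1 Adamts7 held 4.60, 6.23, 3.43, 6.97 and 6.28 CPM at E9.0, 3.17, 5.59, 3.49, 7.62 and 4.76 CPM at E9.5, 10.4, 5.26, 9.44, 5.65 and 7.39 CPM at E10.0 and 18.4, 18.1 and 15.9 CPM at E10.5. All libraries of E10.5 lay above the earlier ones, and those of E10.0 at 10.4 and 9.44 CPM lay above all of E9.0 and E9.5. The calls lost on leaving out 1 library were that of Adamts7 in PA1 labelled Hoxa2-/- without replicate 1 of E10.5 (0.73, adjusted p = 0.0561), that of Adamts7 in PA2 of this label without replicate 3 of E9.0, replicate 1 of E10.5 or replicate 3 of E10.5 (0.55 to 0.73), and that of Adamts10 in wildtype PA2 without replicate 2 of E10.5 (0.50, 0.0602). Adamts18 rose in PA2 of both labels (1.41 and 1.37), from 3.62 ± 0.641 CPM (SD, n = 4) to 11.3 ± 1.73 CPM (SD, n = 3) in wildtype. Adamts17, related to Adamts19, rose by 1.49 in wildtype PA2, and Adamts19 by 0.68 in PA1 and 0.99 in PA2. With the heart muscle omission the changes in PA2 labelled Hoxa2-/- were 1.38 for Adamts7, 1.53 for Adamts10 and 2.45 for Adamts18, and Adamts17 in wildtype PA2 was at 1.20. Each of these rests on 1 PA2 library of E9.0, replicate 3 under the label and replicate 2 in wildtype. Adamts12 fell in wildtype PA2 (-1.13; -0.75, adjusted p = 0.154, without libraries with heart muscle transcripts) and in PA1 labelled Hoxa2-/- (-0.98).

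Of the 7 versican- and aggrecan-cleaving members, 1 rose from E9.0 to E10.5, Adamts15 in wildtype PA2 (0.84). Its call was lost without replicate 1 of E9.0 (0.56, adjusted p = 0.157), replicate 2 of E10.5 (0.70, 0.118) or the libraries with heart muscle transcripts (0.80, 0.089). Falls were called for Adamts8 and Adamts9 in PA1 of both labels (-0.74 and -1.06 in wildtype, -0.81 and -0.86 under the label) and for Adamts5 in PA2 labelled Hoxa2-/- (-0.67). Adamts8 was near the lower limit in PA1 at E10.5, with 1, 6 and 7 reads in wildtype and 2, 0 and 5 under the label. Its exons overlap those of Gm29724 on the opposite strand, and its calls were not followed on leaving out 1 library. The Adamts5 call was lost when any of 4 of its 7 libraries was left out (-0.68 to -0.50), and its sign turned (0.05) without the libraries with heart muscle transcripts, which left replicate 3 as the only one of E9.0. The median difference over these members was -0.53 in wildtype PA1, -0.53 in wildtype PA2, -0.53 in PA1 labelled Hoxa2-/- and -0.02 in PA2 labelled Hoxa2-/-. Versican itself, Vcan, rose in wildtype PA1 (0.61, adjusted p = 0.0121). In wildtype PA2 it was called higher in 1 of the stage comparisons, and in neither arch labelled Hoxa2-/- was it called with stage. Among the procollagen N-propeptidases, Adamts3 rose in PA2 of both labels (0.95 and 0.79), and Adamts14 fell in both arches labelled Hoxa2-/- (-0.75 and -0.60). The Adamts3 call under the label was lost without replicate 3 of E9.0 (0.49, adjusted p = 0.097) or replicate 1 of E10.5 (0.56, 0.109), and that of Adamts14 in PA2 without replicate 1 of E9.0 or replicates 1 or 3 of E10.5 (-0.59 to -0.46). The heart muscle omission gave 1.44 and 1.69 for Adamts3 in PA2 of wildtype and of the label, and -0.36 for Adamts14. Each of these values rests on 1 PA2 library of E9.0. Adamts8 and Adamts15 are neighbours on chromosome 9, 20.1 kb apart.

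**Figure D4:**
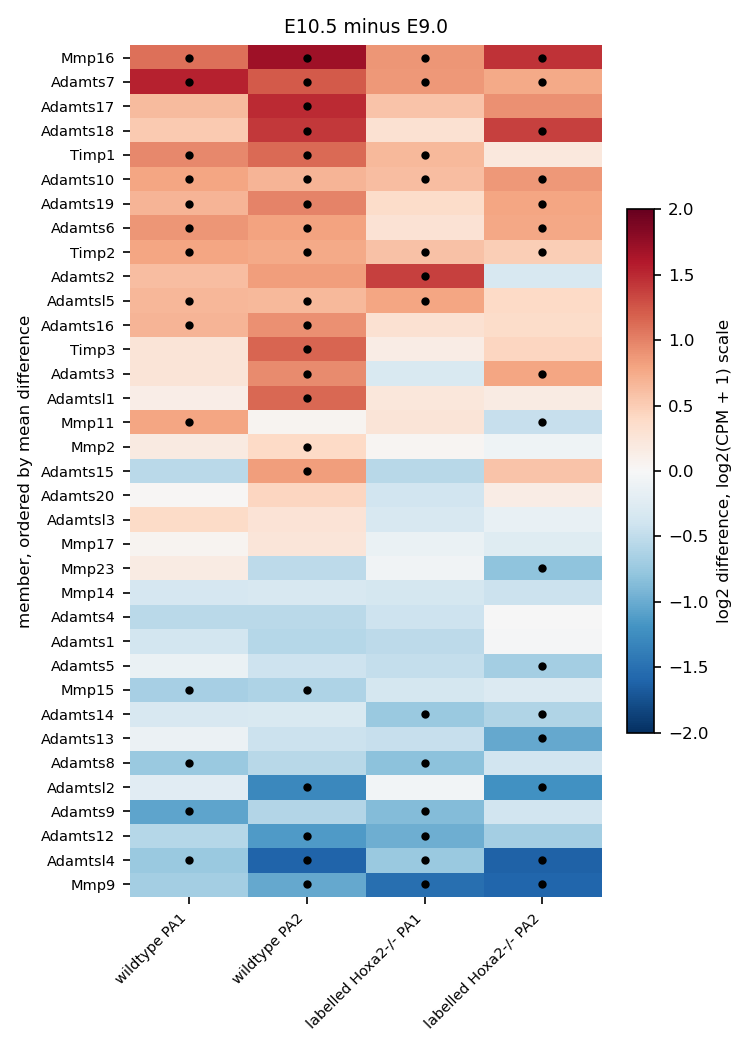
Difference between E10.5 and E9.0 (log2(CPM + 1) scale) for the 35 tested members in the 4 series of arch and genotype label; black points mark an adjusted p under 0.05. Mmp16, Adamts7, Adamts10 and Timp2 carry points in all 4 columns, and Adamtsl4 carries one in all 4 at the lower end.

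The E9.0-to-E10.5 change differed between the arches for 4 members. The test of the difference called 3 of 35 in wildtype (3.35% of all genes) and 3 under the label Hoxa2-/- (7.33%). Adamtsl2 fell in PA2 (-1.30 in wildtype and -1.21 under the label) with PA1 changes that did not pass (-0.23 and -0.06), a difference of -1.07 ± 0.30 (adjusted p = 0.0324) and -1.15 ± 0.31 (0.0158). Mmp11 rose in wildtype PA1 (0.79) with a PA2 change of 0.05, and under the label it fell in PA2 (-0.46) with a PA1 change of 0.25. The difference for Mmp11 was -0.74 ± 0.22 (adjusted p = 0.0486) and -0.71 ± 0.23 (0.0435). Adamts15 differed the other way in wildtype (1.37 ± 0.42, adjusted p = 0.0499), and Adamts3 under the label (1.10 ± 0.33, 0.0288). With the embryo as a block, Adamts15 (1.13, adjusted p = 0.0335) and Adamts18 (1.07, 0.0224) also passed under the label. These calls lay close to the threshold, and edgeR called 1 of the 4 members. Leaving out 1 library ended the call in 6 of 15 refits for Adamtsl2 in wildtype (-1.07 to -0.82) and in 1 of 14 under the label, without PA1 E10.5 replicate 1 (-1.11). For Mmp11 it ended in 12 (-0.78 to -0.60) and 9 refits (-0.77 to -0.47), the smallest value under the label being that without PA1 E10.5 replicate 1. For Adamts15 in wildtype it ended in 12 (1.09 to 1.48) and for Adamts3 under the label in 6 (0.80 to 1.08). The fall of Mmp11 in PA2 under the label was lost without replicate 1 of E9.0 or replicates 2 or 3 of E10.5 (-0.47 to -0.37). With the heart muscle omission the difference was -0.69 and -0.56 for Adamtsl2 and -0.51 and -0.45 for Mmp11, all smaller in size, and 2.01 for Adamts3. That fit held 1 PA2 library of E9.0 in each label. Under the label it was replicate 3, which has the yolk sac transcripts and the lowest Adamts3 value of all libraries (0.662 CPM).

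The third comparison set embryos labelled Hoxa2-/- against wildtype within an arch. Adamts4, the aggrecan- and versican-cleaving protease, and Adamts1, which cuts the same substrates, were higher under the label in PA2 at E10.5. The inhibitor Timp1 and Adamtsl3 were lower, and the difference of Adamtsl3, counted below, is a description. In PA2 the members called were, in stage order, 3 (14% of all genes), 1 (4.48%), 0 (0.0814%) and 4 (10.3%). In PA1 the counts were 0 (2.08%), 4 (23.6%), 0 (0%) and 1 (3.05%). The members' share was below that of all genes at E9.0 and E9.5 in both arches and near it at E10.5. At E10.0, where both labels fell on the same side of the library division, limma and edgeR called 0 members in either arch. There 2 members in PA2 and 1 in PA1 had an unadjusted p under 0.05 in limma (3 and 1 in edgeR). At PA1 E9.0 limma and edgeR also called 0, with 2 and 4 at an unadjusted p under 0.05.

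Adamts4 (chr1:171250421-171260637) was measured in all 68 libraries. In PA2 at E9.0 the wildtype libraries held 6.33, 3.69, 6.07 and 8.71 CPM and those labelled Hoxa2-/- 16.1, 13.6, 8.71 and 10.6 CPM, which met at 8.71 CPM. At E9.5 they held 4.34, 6.70, 6.76 and 9.80 CPM against 18.7, 11.9, 13.1, 10.8 and 9.24 CPM, with overlap. At E10.0 they held 9.94, 9.68, 4.37, 8.12 and 11.6 CPM against 9.39, 14.8, 15.5, 13.9 and 13.4 CPM, again with overlap. At E10.5 the values were 2.17, 6.22 and 3.88 CPM against 9.84, 13.5 and 12.5 CPM, and every library under the label was above every wildtype library. The log2 difference was 0.89 ± 0.27 (adjusted p = 0.0163), 0.81 ± 0.25 (0.04996), 0.60 ± 0.24 (0.562) and 1.42 ± 0.31 (0.00123). The E9.5 call sat at the threshold and was lost when any of 7 of the 9 libraries was left out (0.63 to 0.85), and was 0.88 (adjusted p = 0.0558) in edgeR. The E9.0 call was lost without wildtype replicate 2 (0.70, adjusted p = 0.0975) or Hoxa2-/- replicate 1 (0.76, 0.0642). That wildtype replicate 2 has the highest red cell marker sum, and Hoxa2-/- replicate 3 of this stage the highest yolk sac marker sum. In PA2 at E9.0, wildtype replicates 1, 4 and 5 and Hoxa2-/- replicates 1, 2 and 4 have heart muscle transcripts. The part of these sources in the E9.0 difference was not tested.

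In PA1 Adamts4 did not pass at any stage (0.40, 0.45, 0.00 and 0.53). Across the library division, its level was 2.17 to 12.5 CPM (median 6.73) in the 24 wildtype libraries of the other stages, 4.37 to 14.8 CPM (median 9.74) in those of wildtype E10.0 and 7.12 to 18.7 CPM (median 10.8) in those labelled Hoxa2-/-. The 3 ranges overlapped. Between the arches Adamts4 did not pass at any stage in either label, but with the embryo as a block it was lower in PA2 at wildtype E9.0 (-0.59, adjusted p = 0.0356).

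Adamts1 (chr16:85793827-85803113) held 22.3, 34.6 and 25.9 CPM in wildtype PA2 at E10.5 and 72.2, 42.9 and 83.8 CPM under the label (1.20 ± 0.30, adjusted p = 0.00593), without overlap. The call was lost without Hoxa2-/- replicate 3 (1.01, adjusted p = 0.0605). In PA1 at E9.5 it held 29.0, 57.9, 29.9, 42.1 and 41.8 CPM in wildtype and 85.3, 67.5, 170.0, 56.1 and 64.0 CPM under the label (1.04 ± 0.24, adjusted p = 0.000959). The groups overlapped, and replicate 3 under the label stood far above the other 4. Adamts10 (0.60), Adamts15 (0.88) and Timp2 (0.49) were the other members higher in PA1 at E9.5. Without that replicate Adamts15 was at 0.61 (adjusted p = 0.0693) and Timp2 at 0.40 (0.0728). The Timp2 call was also lost without wildtype replicate 1 (0.44) or 3 (0.45).

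Timp1 in PA2 at E10.5 held 11.4, 8.96 and 9.70 CPM in wildtype and 5.03, 4.64 and 4.63 CPM under the label, without overlap (-0.93 ± 0.20, adjusted p = 0.000916). At E9.0, E9.5 and E10.0 its differences in PA2 were -0.01, -0.10 and 0.11 and did not pass. Adamtsl3 was lower in PA2 at E10.5 (-0.80 ± 0.21, adjusted p = 0.00708), with 1.40, 1.32 and 1.44 CPM in wildtype and 0.610, 0.0800 and 0.491 CPM under the label, and with the embryo block also at E9.5 (-0.55, adjusted p = 0.0427). At E10.5 every wildtype PA2 library reached the 1 CPM required for testing and none under the label did, the 0.0800 CPM being 1 read. The differences of Adamtsl3 between labels are therefore a description. The endothelial marker sum in PA2 at E10.5 was 103 to 119.7 CPM in wildtype and 133 to 159.9 CPM under the label, and the macrophage sum 8.38 to 11.2 against 3.65 to 9.23 CPM. Their part in these differences was not tested.

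In PA2 at E9.0, Mmp2 was higher under the label, with 170.0, 122, 114 and 138 CPM against 215, 194, 168 and 219 CPM (0.56 ± 0.12, adjusted p = 0.000684), and so was Mmp17 (0.58 ± 0.19, 0.035). The groups overlapped for Mmp2 through wildtype replicate 1 and Hoxa2-/- replicate 3. The red cell, yolk sac and heart muscle transcripts given with Adamts4 are in these same libraries, and their part in both differences was not tested. The Mmp17 call was lost without any of 5 libraries, with 0.30 (adjusted p = 0.299) without Hoxa2-/- replicate 1. Adamts6 was the member that was lower in PA1 at E10.5 (-0.77 ± 0.22, adjusted p = 0.0372), with 7.41, 6.91 and 7.08 CPM against 3.55, 3.07 and 4.81 CPM, and the call was lost without any of 5 libraries (-0.79 to -0.66).

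**Figure D5:**
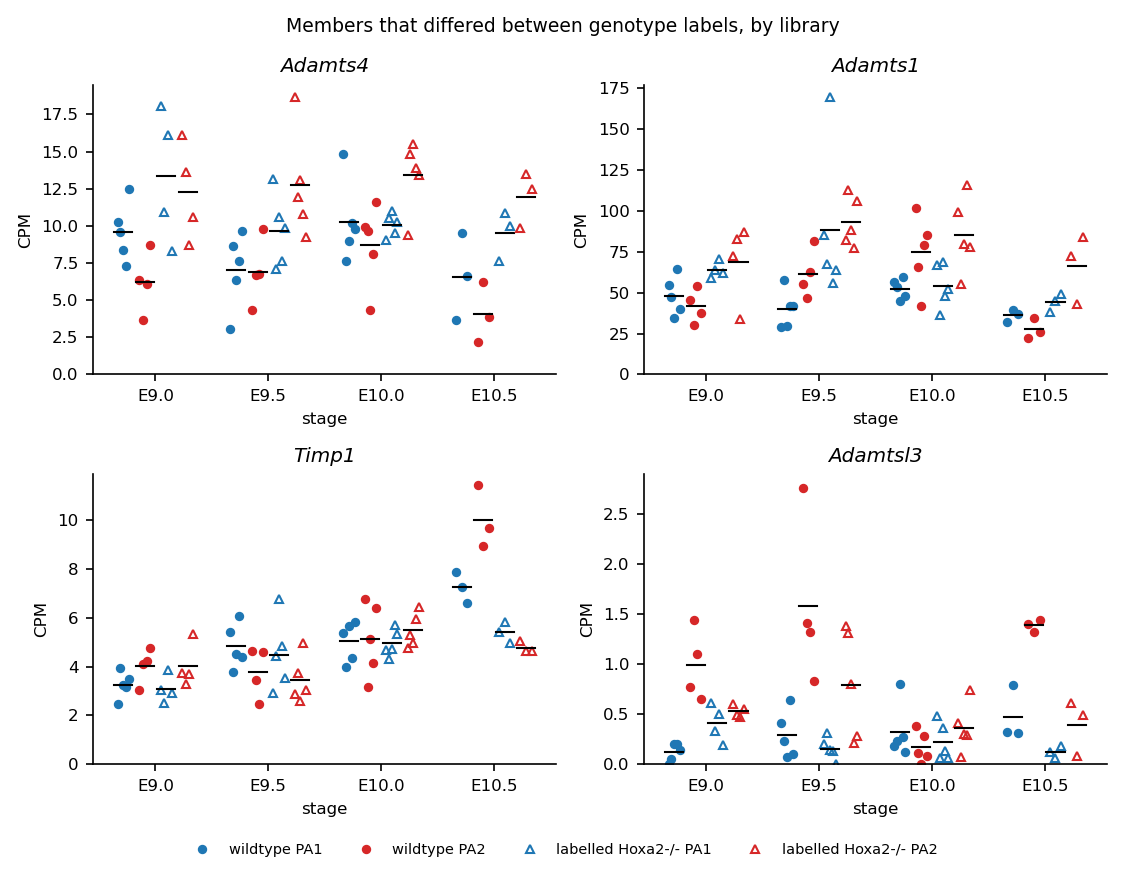
CPM of Adamts4, Adamts1, Timp1 and Adamtsl3 in each library by stage; circles are wildtype, triangles are labelled Hoxa2-/-, blue is PA1, red is PA2, and short lines are group means. At E10.5 the red triangles lie above the red circles for Adamts4 and Adamts1 and below them for Timp1 and Adamtsl3.

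Whether the label's difference itself differed between the arches was tested directly. It called 0 members at each of the 4 stages in limma, in limma with the embryo as a block and in edgeR, beside 0%, 0.0109%, 0.0163% and 0.038% of all genes in limma. At an unadjusted p under 0.05 limma gave 4, 3, 0 and 3 members and edgeR 5, 6, 0 and 3. The 3 at E10.5 were Timp1 (-0.56 ± 0.28), Adamts4 (0.88 ± 0.43) and Adamts1 (0.93 ± 0.43). The members' differences under the label are therefore not shown to be specific to PA2, and the arch differences of the members are not shown to differ between the labels.

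Genes that act with the members were taken from lists of partners. Counts between the arches are of genes called at 1 or more of the 4 stages, as in the shares of all genes given above for that rule (18.7% higher and 21.5% lower in wildtype, 15% and 15.2% under the label). Of 6 tested inhibitors outside the TIMP family, 5 were higher and 1 lower in PA2 in wildtype, and 4 and 1 under the label. Spock1, which encodes a proteoglycan that inhibits membrane-type MMPs, was higher in PA2 at all 4 stages in both labels: 1.37, 2.30, 1.76 and 1.06 in wildtype, from means of 0.313 to 5.47 CPM at E9.5 (adjusted p = 4.3e-14). Spock3 was higher at E9.0, E9.5 and E10.0 in both labels, for example 0.64 in wildtype E9.0. A2m, a broad protease inhibitor, was lower in PA2 at E9.0 (-0.76 in wildtype and -0.89 under the label).

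Of 6 convertases and cofactors, 3 were higher in PA2 in wildtype and 2 under the label, and none was lower. Pcsk6, a convertase that cleaves propeptides, led them, at 0.99, 1.04 and 1.50 at E9.0, E9.5 and E10.0 in wildtype. Between E9.0 and E10.5, 4 of the 6 fell in wildtype PA1, 3 in wildtype PA2, 3 in PA1 labelled Hoxa2-/- and 5 in PA2 labelled Hoxa2-/-. The shares of all genes called lower over that interval were 21.5%, 19.4%, 16.5% and 15.1% in that order. The differences for Pcsk6 were -0.99 in wildtype PA1 and -1.25 in wildtype PA2, and those for Furin -0.60 and -0.80. Of 10 tested substrates, 1 was higher and 4 lower in PA2 in wildtype, and 2 and 3 under the label. Fn1, fibronectin, was higher in PA2 at E9.0, E9.5 and E10.0 in both labels (1.14, 1.50 and 0.83 in wildtype). Col3a1 was lower at wildtype E9.0 (-2.25) and rose to E10.5 in all 4 series (1.29, 3.54, 1.32 and 2.99). Vcan was lower under the label Hoxa2-/- at every stage except E10.0 in both arches, with differences of -0.93, -0.62 and -1.16 in PA2 and -0.70, -0.75 and -0.99 in PA1. These are the 3 stages at which the label follows the library division.

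Of 3 tested genes of plasminogen activation, Plaur, the urokinase receptor, was higher in PA2 at E9.0 and E9.5 in both labels (1.07 and 0.67 in wildtype), and Serpine2, a serpin, was lower (-0.37 at wildtype E9.0). Of 4 tested astacin proteases and enhancers, 2 were higher and 2 lower in PA2 in wildtype. Bmp1, the procollagen C-proteinase, was higher at E9.0, E9.5 and E10.0 in wildtype (0.38, 1.01 and 0.56), and its enhancer Pcolce rose with stage in all 4 series, by 0.76 in wildtype PA1 and 1.49 in wildtype PA2. Of 11 tested membrane ADAM proteases, 3 were higher in PA2 in wildtype and 2 lower under the label. Adam12 fell with stage in all 4 series (-2.79, -2.45, -3.05 and -1.50) and Adam11, which lacks an active protease site, rose in all 4 (1.45, 1.08, 1.07 and 1.46).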

How the data were processed

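The authors deposited 1 table of normalised signal, named CPM (depth-scaled read counts) in its title, for 21948 Ensembl genes in 68 libraries. Per the labels, RNA of each dissected arch was amplified with a kit that does not mark strand. The submitters' processing notes name bcl2fastq 2.18, TopHat2 2.1.1, R 3.3.2 and mm10; the read counter, annotation and strand setting are not given in the sources used here. Deposited columns summed to between 926298 and 1051959, so the signal was taken as CPM scaled by a library factor. The values of a library were whole multiples of 1 step, which gave whole reads for 100% of values (tolerance 0.01 reads) and totals of 8912251 to 20619153. In 1 library (Hoxa2-/- PA1 E9.0 replicate 3) the step, 0.0996 CPM, lies near a round number and was told from rounding only by the decimals of its values. These totals limit detection to about 3 reads, and this covers counting error only.

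Genes with at least 1 CPM in 3 libraries (18428) were tested as log2(CPM + 1) with limma 3.58.1 in R 4.3.3, with all 16 groups in 1 fit and Benjamini-Hochberg adjustment at 0.05 over all genes. Python 3.11.15 with pandas 2.3.3 and matplotlib 3.10.9 was used for the remaining steps. A quasi-likelihood test in edgeR 4.0.16 on the recovered reads was an alternative, and called 3637 genes between the arches of wildtype E9.0, where limma called 3454. Also tried were a pseudocount of 0.25 or 5, testing every gene, requiring 5 CPM, scaling by median of ratios, a fit of the compared groups alone, the embryo as a block, and leaving out each library. Omissions of 2 kinds, of libraries with yolk sac or red cell transcripts and of libraries with heart muscle transcripts, were added after seeing the data. The fits were tested on simulated data.

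Same-numbered PA1 and PA2 libraries of a stage and label come from 1 embryo, per the series text. Their deviations from the group means had a median correlation of 0.347 over 33 pairs, 30 of them over 0.1, against -0.124 for 116 pairs with different numbers. Whether embryos of a group are separate litters is not given, so p-values measure the spread between these embryos. Members and gene lists were chosen with earlier results of these data known. Any member could be named; Adamts4, the TIMPs and, in each family of comparisons, up to 6 members in each direction with the largest called difference and a mean of at least 2 CPM got full statistics. Marker and partner lists came from general knowledge. Promoter windows are from RefSeq on GRCm38.p6, and gene coordinates from GENCODE on GRCm38.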

Additional observations from a re-analysis of the deposited data

Results flagged for a closer look

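In 348 combinations of 29 members and a group of 4 or 5 libraries, 21 had a library far from the others of its group; chance flags about 1 in 20 groups. Library 3 of PA1 at E9.5 labelled Hoxa2-/- was the highest of its group in Adamts17 (50.1 CPM), Adamts2 (33.8 CPM), Adamts9 (38.5 CPM), Mmp23 (8.39 CPM) and Timp3 (78.0 CPM). Replicate 3 of PA2 at E9.0 labelled Hoxa2-/-, the library with yolk sac transcripts, was the lowest in Adamts12 (1.51 CPM) and Adamts6 (0.757 CPM). Replicate 3 of wildtype PA2 at E10.0 was the lowest in Adamts14 (0.546 CPM) and Adamts9 (7.32 CPM).

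Among the other wildtype libraries, Adamts14 was low in PA2 E9.5 replicate 2 (1.57 CPM), Mmp2 was low in PA1 E9.0 replicate 4 (134 CPM) and Mmp9 was high in PA2 E9.5 replicate 3 (4.88 CPM). Under the label Hoxa2-/-, high values were those of Adamts13 in PA2 E10.0 replicate 5 (3.32 CPM), Adamts17 in PA1 E9.0 replicate 3 (4.78 CPM) and Mmp9 in PA1 E9.5 replicate 1 (1.32 CPM). Low values under the label were those of Adamts4 in PA2 E10.0 replicate 1 (9.39 CPM), Adamts6 in PA1 E9.5 replicate 2 (2.29 CPM), Mmp2 in PA2 E9.5 replicate 5 (159.9 CPM), Mmp23 in PA2 E9.5 replicate 4 (2.37 CPM), Mmp9 in PA1 E10.0 replicate 4 (0 CPM) and Timp2 in PA1 E9.0 replicate 4 (51.9 CPM).

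A tested difference between the arches in the E9.0-to-E10.5 change was found for Adamtsl2 (-1.07 in wildtype and -1.15 under the label), Mmp11 (-0.74 and -0.71), Adamts15 in wildtype (1.37) and Adamts3 under the label (1.10).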

How the results depend on the processing

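For the called results of the 29 members with full statistics, leaving out 1 library kept direction and call in 1173 refits. It lost the call in 259, with 0 reversals. The calls of Adamts8, Adamts16, Adamtsl1, Adamtsl3 and Adamtsl5 were not followed in this count. Counts of members called ranged, on leaving out 1 library, from 16 to 22 between wildtype arches, 11 to 16 between arches labelled Hoxa2-/-, 5 to 7 for the genotype label in PA2, 3 to 9 in PA1, 14 to 19 with stage in wildtype PA1, 24 to 27 in wildtype PA2, 11 to 16 and 13 to 20 in PA1 and PA2 labelled Hoxa2-/-, and 1 to 5 for the change between arches; the test of the label's difference between arches stayed at 0. For the genotype label in PA1, the 5 members became 3 without Hoxa2-/- E9.5 replicate 3, 9 without replicate 2, 8 without replicate 4 and 8 without wildtype E9.5 replicate 2. For the change between arches, the 4 members became 1 without Hoxa2-/- PA1 E9.0 replicate 3 or PA2 E10.5 replicate 1, and 2 without PA1 E9.0 replicate 2, PA1 E10.5 replicates 1 or 2, or PA2 E10.5 replicates 2 or 3.

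When the fit held the compared groups alone, 8 members (14 with all groups) were called between arches labelled Hoxa2-/- and 5 (18) with stage in PA2 of that label. The genotype label in PA1 gave 8 members with a pseudocount of 5, 12 in edgeR, 9 without libraries with yolk sac or red cell transcripts and 9 without those with heart muscle transcripts; the last 2 settings were chosen after seeing the data. The change between arches gave 1 in edgeR and 10 without the libraries with heart muscle transcripts. That omission, which left 1 PA2 library of E9.0 in each label, assumed to vary like the other groups, also reversed Mmp14 between arches labelled Hoxa2-/- at E9.0 (-0.0204) and Adamts5 in PA2 of that label (0.0536 from E9.0 to E10.5). The cause was not tested. With the embryo as a replicate block, 26 members were called between wildtype arches and 19 under the label. The counts of members in this section stand without the share of all genes at the same setting. They describe the processing and not the members. Beside the calls given above, the block added Adamts4 in wildtype PA2 from E9.5 to E10.5 (-0.68, adjusted p = 0.0468) and lost Adamts3 in PA2 labelled Hoxa2-/- from E9.0 to E9.5 (0.56, 0.0544); it changed no other call. Members near 3 reads, such as Mmp9 at E10.0 in PA1, were limited by depth.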
